A study of Homo sapiens with 6 samples.

Results

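The genes described here encode the secreted WNT ligands, their Frizzled (FZD) receptors, and the secreted or membrane proteins that tune the ligand-receptor step: the SFRP and DKK antagonists, the R-spondins (RSPO) and their LGR receptors. The list holds 44 genes out of 20037 protein-coding genes, with 19 WNT, 10 FZD, 4 SFRP, 4 DKK, 4 RSPO and 3 LGR genes. Each gene's GRCh38 interval was extended by 5 kb on both sides, and every peak that shared at least 1 bp with the extended interval was assigned to it. This gave 147 of the 78694 H3K27ac peaks and 95 of the 43677 CTCF peaks.

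The peaks come from chromatin immunoprecipitation followed by sequencing (ChIP-seq) in cultured neurons. These were grown from neural progenitors of a human induced pluripotent stem cell line, the single clonal line KOLF2.1J. The CTCF, H3K27ac and input groups had 2 libraries each, all of this one line and cell type, with no treatment, genotype or time contrast in the labels. Each antibody has 1 peak list covering both of its libraries, so no spread between libraries can be given, and the depth behind each value is unknown. For H3K27ac, an acetylation of histone H3 found at active promoters and enhancers, the authors' value per peak was read as a fold enrichment. This reading rests on the layout and values of the list. For CTCF, a DNA-binding protein found at chromatin loop anchors, the value per peak is the authors' signal value. Its scale is not stated and cannot be set against the H3K27ac scale.

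WNT proteins are lipid-modified, secreted glycoproteins that bind a Frizzled receptor together with a co-receptor. In the canonical branch this stabilizes β-catenin, which acts with TCF/LEF factors on target genes, and other branches act on cell polarity and calcium. SFRP proteins bind WNT ligands, DKK proteins bind the LRP co-receptors, and R-spondins bound to LGR receptors keep Frizzled at the cell surface. In the developing nervous system the pathway takes part in dorsal and posterior patterning, in progenitor proliferation, and in axon and synapse growth.

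The label of the cells was set against marker genes in the same way. An H3K27ac peak was listed for 73.8% of all protein-coding genes. It was listed at 9 of 9 neuron markers and 6 of 6 neural progenitor markers, at 4 of 5 astrocyte, 3 of 4 oligodendrocyte and 2 of 4 pluripotency markers, and at 3 of 4 liver and muscle markers. Taking each gene's strongest H3K27ac peak, with 0 for none, the median fold enrichment was 37.0 over the progenitor markers and 17.9 over the neuron markers, against 11.03 over all protein-coding genes. It was 14.3 over the astrocyte markers, and 4.75, 3.81 and 3.45 over those of oligodendrocytes, pluripotent cells, and liver and muscle. POU5F1 and NANOG had no H3K27ac peak, while the other pluripotency markers, LIN28A and DPPA4, reached 12.1 and 7.63. AQP4, MOG and ALB had no H3K27ac peak either. The counts for astrocyte, oligodendrocyte, and liver and muscle markers were near the share of all genes and tell nothing about these cells. The progenitor markers had a higher median than the neuron markers. The highest value of all the markers was 62.8, at the astrocyte marker GFAP. A peak in the top 10% of the H3K27ac list was found at 5 of 9 neuron and 5 of 6 progenitor markers, against 36.6% of all protein-coding genes. Such a peak was found at 2 of 5 astrocyte, 1 of 4 liver and muscle, 0 of 4 oligodendrocyte and 0 of 4 pluripotency markers. The neuron markers RBFOX3 and SYN1 reached only 5.96 and 5.54, below the median over all protein-coding genes. The progenitor marker PAX6, with 9.81, also lay below that median. Bulk lists cannot tell fewer marked cells from less of the mark per cell, and the part of other cells in the results was not tested.

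Sequence upstream of the start sites came from a promoter table derived from RefSeq (GRCh38.p14), which held 35 starts for 30 of the 44 members. DKK2, DKK3, DKK4, FZD2, FZD3, FZD6, FZD7, FZD10, LGR5, RSPO2, SFRP1, WNT7B, WNT10B and WNT11 had no entry in this table. The windows printed are the 250 bases upstream of a start, written 5′ to 3′ on the gene's strand. The first set shows upstream windows with letter matches that the text below refers to. Capitals mark AGGGGGC, the short core of the CTCF motif, in WNT1 and in the first of the 2 WNT2B starts, and CTTTGA, the core letters bound by TCF/LEF factors, in DKK1. Either strand was searched.
WNT1, chr12:48978072-48978321, plus strand: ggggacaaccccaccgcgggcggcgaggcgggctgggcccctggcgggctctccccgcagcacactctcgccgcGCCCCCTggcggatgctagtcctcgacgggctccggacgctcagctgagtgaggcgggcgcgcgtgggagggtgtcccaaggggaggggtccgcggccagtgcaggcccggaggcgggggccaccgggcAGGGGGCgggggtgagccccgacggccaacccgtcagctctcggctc
WNT2B, chr1:112466291-112466540, plus strand: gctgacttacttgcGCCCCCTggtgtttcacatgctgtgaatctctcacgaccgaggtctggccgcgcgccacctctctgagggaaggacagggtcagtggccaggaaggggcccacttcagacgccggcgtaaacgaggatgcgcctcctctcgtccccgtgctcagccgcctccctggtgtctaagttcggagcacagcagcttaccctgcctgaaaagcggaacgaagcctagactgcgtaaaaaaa
DKK1, chr10:52314031-52314280, plus strand: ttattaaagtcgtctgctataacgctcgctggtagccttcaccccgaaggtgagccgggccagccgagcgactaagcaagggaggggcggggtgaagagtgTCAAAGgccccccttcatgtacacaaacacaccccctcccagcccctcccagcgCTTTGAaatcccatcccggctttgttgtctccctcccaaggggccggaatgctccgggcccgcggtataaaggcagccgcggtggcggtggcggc

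In the WNT1 window, the letters lay 176 to 170 bases and again 47 to 41 bases upstream of the start, and the summit of a CTCF peak with a signal value of 206 lay 168 bases upstream. The WNT2B window held the letters 236 to 230 bases upstream, and the summit of a CTCF peak with a signal value of 273 fell inside them, 235 bases upstream. Neither window held an H3K27ac base. The DKK1 window held CTTTGA 149 to 144 bases upstream on the opposite strand and 95 to 90 bases upstream on the gene's own strand, and TATAAA 30 to 25 bases upstream.

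Among all 35116 windows of this length, 13.3% held AGGGGGC, 11.2% held CTTTGA and 10.7% held TATAAA. The letters AGGGGGC were found in 22.6% of the 5662 windows that met a CTCF peak and in 11.6% of the others. Among the 35 member windows they were found in 8, those of FZD4, FZD5, RSPO4, SFRP2, WNT1, WNT2B, WNT6 and WNT7A, of which 5 met a CTCF peak. Meeting a peak does not place the letters inside it. Both WNT7A matches lay outside its CTCF peak, and the FZD4 match lay wholly inside only a weak one, with a signal value of 14.9 and a q above 0.05. CTTTGA was found only in the window of DKK1. A match describes the letters and not a bound site.

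The second set shows the remaining start windows where peaks of both lists met within 250 bases upstream to 50 bases downstream of the start, with RSPO3 and LGR4, which had the strongest H3K27ac peak within 1 kb of a start among the RSPO and LGR genes. Capitals mark bases inside a CTCF peak.
WNT5A, chr3:55487307-55487556, minus strand: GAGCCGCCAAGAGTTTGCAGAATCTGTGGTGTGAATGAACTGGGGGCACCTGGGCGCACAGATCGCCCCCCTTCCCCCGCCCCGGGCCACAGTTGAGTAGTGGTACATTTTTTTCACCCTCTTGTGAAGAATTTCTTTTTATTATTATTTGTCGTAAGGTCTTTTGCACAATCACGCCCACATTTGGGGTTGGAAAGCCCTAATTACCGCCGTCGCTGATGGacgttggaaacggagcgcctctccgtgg
WNT7A, chr3:13880072-13880321, minus strand: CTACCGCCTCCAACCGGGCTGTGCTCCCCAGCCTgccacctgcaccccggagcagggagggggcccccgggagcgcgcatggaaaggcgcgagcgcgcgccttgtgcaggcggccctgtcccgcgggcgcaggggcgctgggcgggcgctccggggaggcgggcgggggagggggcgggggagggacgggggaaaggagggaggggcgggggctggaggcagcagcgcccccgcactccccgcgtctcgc
FZD1, chr7:91264183-91264432, plus strand: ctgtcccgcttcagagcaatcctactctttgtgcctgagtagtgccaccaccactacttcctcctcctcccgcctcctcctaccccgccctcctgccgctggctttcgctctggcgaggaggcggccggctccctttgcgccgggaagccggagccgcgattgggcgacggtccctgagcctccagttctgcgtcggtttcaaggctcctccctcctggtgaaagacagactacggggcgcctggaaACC
FZD4, chr11:86955396-86955645, minus strand: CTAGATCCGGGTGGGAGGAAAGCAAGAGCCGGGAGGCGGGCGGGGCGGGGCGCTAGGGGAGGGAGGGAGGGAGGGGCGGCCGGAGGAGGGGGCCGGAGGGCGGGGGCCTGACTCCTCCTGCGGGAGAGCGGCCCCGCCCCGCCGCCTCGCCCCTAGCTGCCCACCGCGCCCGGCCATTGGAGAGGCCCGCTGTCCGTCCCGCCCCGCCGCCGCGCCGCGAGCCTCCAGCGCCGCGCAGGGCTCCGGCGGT
FZD5, chr2:207769907-207770156, minus strand: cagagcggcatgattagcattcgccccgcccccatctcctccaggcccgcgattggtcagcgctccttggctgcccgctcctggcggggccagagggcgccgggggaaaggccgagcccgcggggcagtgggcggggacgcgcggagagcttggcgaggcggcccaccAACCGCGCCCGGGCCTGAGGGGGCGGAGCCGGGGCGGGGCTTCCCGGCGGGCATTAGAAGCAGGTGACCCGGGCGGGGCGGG
FZD8, chr10:35642297-35642546, minus strand: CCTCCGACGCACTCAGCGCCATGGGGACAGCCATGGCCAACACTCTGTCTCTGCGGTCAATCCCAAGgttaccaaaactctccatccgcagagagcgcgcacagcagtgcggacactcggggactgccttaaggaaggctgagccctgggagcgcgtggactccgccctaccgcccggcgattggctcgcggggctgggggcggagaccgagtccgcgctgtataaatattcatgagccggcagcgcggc
SFRP4, chr7:37916818-37917067, minus strand: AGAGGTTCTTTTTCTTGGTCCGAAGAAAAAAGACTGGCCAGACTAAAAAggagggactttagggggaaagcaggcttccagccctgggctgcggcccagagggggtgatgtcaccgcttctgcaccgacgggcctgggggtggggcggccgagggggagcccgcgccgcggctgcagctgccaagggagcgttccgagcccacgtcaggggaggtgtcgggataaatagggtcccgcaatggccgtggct
RSPO3, chr6:127118421-127118670, plus strand: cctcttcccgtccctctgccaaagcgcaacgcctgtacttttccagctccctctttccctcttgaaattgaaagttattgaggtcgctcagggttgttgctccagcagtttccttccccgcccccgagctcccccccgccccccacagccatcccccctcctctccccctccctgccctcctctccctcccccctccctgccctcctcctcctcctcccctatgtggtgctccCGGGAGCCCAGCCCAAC
LGR4, chr11:27472791-27473040, minus strand: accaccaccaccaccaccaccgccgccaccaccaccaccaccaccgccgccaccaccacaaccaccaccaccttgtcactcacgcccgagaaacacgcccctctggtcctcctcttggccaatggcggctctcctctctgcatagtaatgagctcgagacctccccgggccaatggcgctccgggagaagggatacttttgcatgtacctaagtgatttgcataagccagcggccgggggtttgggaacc

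In these windows the CTCF peak covered all 250 bases in FZD4, 222 in WNT5A, 82 in FZD5, 67 in FZD8, 49 in SFRP4, 34 in WNT7A, 17 in RSPO3 and 3 in FZD1. The WNT5A capitals come from a weak CTCF peak with a −log10 q of 0.446, which is a q above 0.05. The peak over the whole FZD4 window, with a signal value of 14.9 and a −log10 q of 0.367, was weak in the same way, and the stronger FZD4 peak of 53.5 covered only the part nearest the start. The H3K27ac peak covered all 250 bases in WNT5A and SFRP4, 143 in FZD1, 63 in LGR4, 47 in FZD4, 39 in WNT7A, 35 in FZD5 and 33 in FZD8. The member windows had a median GC content of 65.2% and a median of 21 CpG dinucleotides, against 58% and 11 over all windows. The 18 member windows with no peak of either list had a median GC content of 67.8% and 19.5 CpG dinucleotides, whereas the 18613 windows without a peak in the whole table had 49.6% and 3. Member windows with an H3K27ac peak had a median of 19 CpG dinucleotides, close to those without a peak, and those with a CTCF peak had 29.

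The first comparison asked which members carried each mark. An H3K27ac peak was listed for 33 of the 44 members (75%), against 73.8% of all protein-coding genes and 75.4% of genes whose lengths lay between the quartiles of the members. A CTCF peak was listed for 38 members (86.4%), against 68.3% of all protein-coding genes and 66.9% of those of similar length. Both lists held a peak for 30 members (68.2%), against 58.5% of all genes. The share with H3K27ac was therefore close to the background, and the share with CTCF lay above it. With no replicate values, neither difference was tested.

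Strongly acetylated peaks were found at a smaller share of the family than of all genes. A peak among the top 10% of fold enrichment in its list, which means at least 16.3, was found for 10 members (22.7%) and for 36.6% of all protein-coding genes. The share was not smaller among genes under 10 kb, where 4 of 13 members had such a peak, against 24.9% of genes. For lengths of 10 to 40, 40 to 100 and 100 to 200 kb, 3 of 14, 2 of 12 and 1 of 5 members had one. The shares of all protein-coding genes of these lengths were 37.8%, 42.5% and 47.6%. With 0 for a gene without a peak, the strongest peak had a median fold enrichment of 6.0 in the members and 11.03 over all protein-coding genes, although the members had a median of 3 H3K27ac peaks each and all genes a median of 2. The 10 were FZD3, FZD7, FZD1, FZD2, LGR4, FZD9, DKK4, WNT5B, WNT5A and WNT9B, so 5 of them were Frizzled receptors. SFRP4 with 13.4 and FZD6 with 13.2 came next below that limit.

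**Figure D1:**
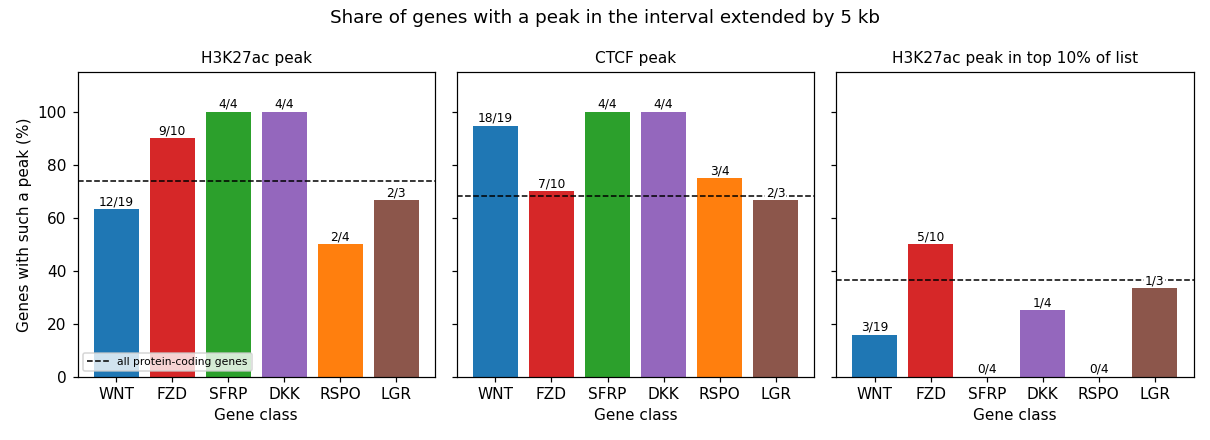
Share of genes in each class (bars, percent, with counts above) that had an H3K27ac peak, a CTCF peak or an H3K27ac peak in the top 10% of its list within the interval extended by 5 kb. Dashed lines give the share of all protein-coding genes (73.8%, 68.3% and 36.6%). The WNT bar is below the line for H3K27ac (12 of 19) and above it for CTCF (18 of 19), and the FZD bar is above the line for strong H3K27ac peaks (5 of 10).

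The classes differed in which mark they carried. Of the WNT ligands 12 of 19 had an H3K27ac peak and 18 of 19 a CTCF peak, and 6 ligands had CTCF alone. Of the Frizzled receptors 9 of 10 had H3K27ac and 7 of 10 had CTCF, and no receptor had CTCF alone. Each of the 4 SFRP and 4 DKK genes had both marks, against 58.5% of all protein-coding genes. The RSPO genes had H3K27ac in 2 of 4 and CTCF in 3 of 4, and the LGR genes had each mark in 2 of 3. Over all protein-coding genes the shares were 73.8% for H3K27ac and 68.3% for CTCF. Of all 20037 protein-coding genes, 13677 had a CTCF peak and 11723 of these had both marks, so the remainder had CTCF alone. Among the 44 members, 8 had CTCF alone. The classes are small, so their differences were not tested.

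Per length, acetylated regions were densest at the Frizzled receptors. The median was 1.89 H3K27ac peaks per 10 kb of interval for FZD, 1.00 for SFRP, 0.931 for DKK, 0.542 for WNT, 0.254 for LGR and 0.103 for RSPO genes, against 0.404 over all protein-coding genes. H3K27ac peaks covered a median of 17.1% of a Frizzled interval and 0.921% of a WNT interval. Most Frizzled genes are short, so that the flanks make up much of their intervals. The 8 Frizzled genes under 10 kb had 3, 6, 2, 2, 5, 6, 4 and 0 H3K27ac peaks (FZD1, FZD2, FZD4, FZD5, FZD7, FZD8, FZD9 and FZD10), and the median of the 5694 protein-coding genes under 10 kb was 1.

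**Figure D2:**
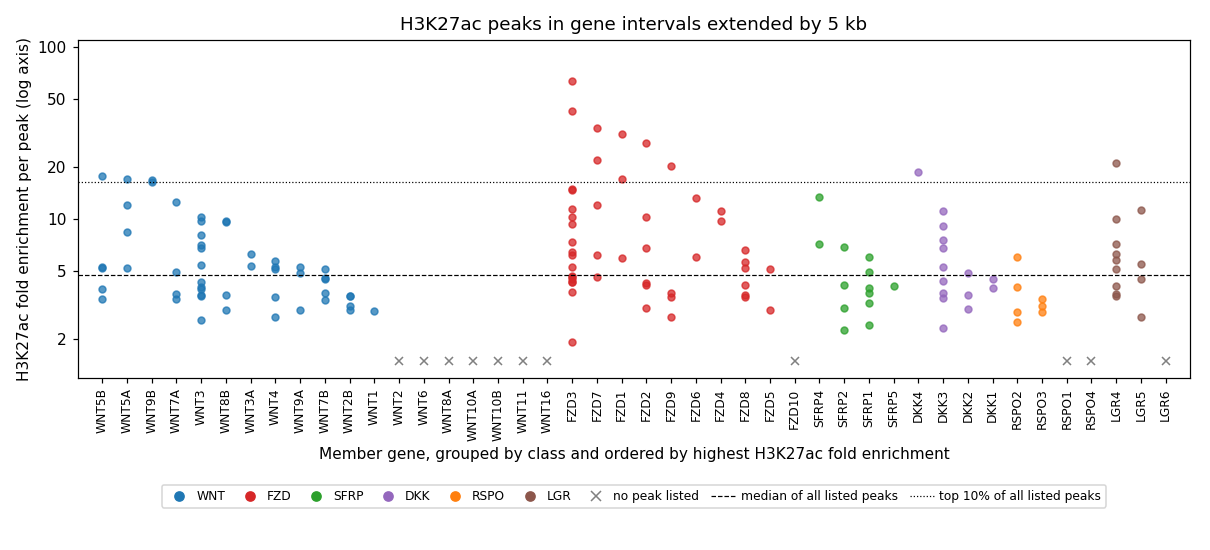
H3K27ac fold enrichment (log axis) of each peak (point) in the extended interval of each of the 44 genes, coloured by class. Crosses below the data mark the 11 genes with no peak listed, the dashed line the median of the whole list (4.74) and the dotted line its top 10% (16.3). FZD3 reaches 63.3, and 7 of the 11 genes without a peak are WNT ligands.

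FZD3, a receptor known for its part in axon tract formation, had the highest fold enrichment and the most H3K27ac peaks of the family. By share of the interval covered, FZD7 with 39.8% and FZD2 with 30.8% exceeded its 25.8%, and FZD2, FZD8, FZD7, FZD9 and SFRP2 had more peaks per 10 kb. Its interval on chromosome 8 (gene from 28494212 to 28574258) held 18 H3K27ac peaks, more than 98.1% of the 1605 protein-coding genes within 20% of its length. The strongest ran from 28490348 to 28499156 over 8809 bp, across the lower-coordinate end of the gene, with a fold enrichment of 63.3 at percentile 99.8 of its list. Inside the gene lay another strong peak, spanning 28512937 to 28516617 and enriched 42.5-fold, 13.8 kb away. Together with their neighbours they formed a stretch of 17 peaks from 28489230 to 28520933, in which acetylated bases made up 72.5% of 31.7 kb. The next and last peak of the interval followed 55.8 kb further on, with a fold enrichment of 4.32. At the lower end of the stretch, the peaks from 28489230 to 28489445 and from 28489728 to 28490261 overlapped the neighbouring gene FBXO16. The only CTCF peak of the interval, at 28490634 to 28491006, had a signal value of 108 and lay inside the widest H3K27ac peak.

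FZD7, FZD1 and FZD2 followed. At FZD7 on chromosome 2 (202033855 to 202038441), a peak of 33.6 ended short of the gene's lower-coordinate end, and peaks of 22.1 and 12.1 lay over the gene. A CTCF peak spanning 202035381 to 202035913 bridged the gap between the latter pair, and its signal value of 336 was the highest of the 95 CTCF peaks in the family. FZD1 on chromosome 7 (91264433 to 91271326) had a peak of 31.2 with its summit 0.834 kb downstream of the start and a peak of 17.0 with its summit 0.427 kb upstream. Both of its CTCF peaks were weak, with signal values of 49.8 and 26.5, and both lay on the downstream acetylated region. FZD2 on chromosome 17 (44557484 to 44561262) had 6 H3K27ac peaks and no CTCF peak. Its strongest, 27.7, ran from 44555843 to 44557128 outside the gene, and the peak over the gene's lower-coordinate end had 10.3.

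The remaining receptors carried weaker or more distant acetylation. FZD9 had no H3K27ac peak on the gene itself, and its strongest, 20.2, lay 4.84 kb upstream of the start, in the flank from 73428272 to 73430265 on chromosome 7. FZD6 had peaks of 13.2 and 6.0 at the lower-coordinate end of the gene and no CTCF peak. FZD4, mutated in familial exudative vitreoretinopathy, had peaks of 11.1 and 9.67 on either side of its start. They were overlapped by 3 CTCF peaks, with signal values of 53.5, 24.3 and 14.9. The 6 H3K27ac peaks of FZD8 reached only 6.58, and its CTCF peaks had signal values of 234, 157, 103 and 84.3. FZD5 had small H3K27ac peaks of 5.11 and 2.97 near its start and CTCF peaks of 152 and 150. FZD10 had no peak in either list.

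Among the ligands, WNT5B, WNT5A and WNT9B were the only ones with a peak in the top 10% of the H3K27ac list. WNT5A, a ligand of the branches that act without β-catenin, carried its strongest peak at a start: 17.1, from 55485981 to 55488456 on chromosome 3, with peaks of 12.03, 8.45 and 5.19 beside it. CTCF peaks of 211 and 15.6 overlapped these, and one of 86.0 lay 17.9 kb upstream of the nearest listed start. WNT5B on chromosome 12 (1617056 to 1647212) had its strongest peak, 17.7, far from the listed starts, with its summit 15.0 kb downstream of the nearest. No H3K27ac peak lay within 1 kb of either start of WNT5B, and its strongest CTCF peak, 283, had its summit 5.56 kb downstream of a start. The strongest peaks of WNT9B, 16.7 and 16.5, lay 18.8 and 19.6 kb upstream of its listed start, at the lower-coordinate end of its interval. WNT9B also had 6 CTCF peaks, the strongest of 298 with its summit 15.5 kb upstream of that start, and more CTCF peaks than 97.6% of 2020 genes of similar length.

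WNT3, a canonical ligand, had 12 H3K27ac peaks, the most of any ligand and more than 96.8% of the 1954 genes of similar length. Its start was flanked by peaks of 7.05, 6.77, 4.29 and 2.58, while a group of 6 peaks with values up to 10.3 lay 45.5 to 54.2 kb downstream. Both of its CTCF peaks, 123 and 100.1, lay off the acetylated regions. WNT3, WNT9B and FZD2 lie on chromosome 17 with MAPT, the gene in the study's title. WNT3 lies 734 kb, WNT9B 805 kb and FZD2 1333 kb from it. The table's interval of LRRC37A2 spans both WNT3 and WNT9B, so peaks there overlap that gene too.

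The other ligands with H3K27ac reached 12.5 or less. WNT7A, active in synapse formation, had 12.5 in a peak beyond the far end of the gene, 68.3 kb from the start, and only 4.95, 3.65 and 3.42 near the start, where a CTCF peak had a signal value of 295. WNT8B had peaks of 9.77 and 9.56 beyond its higher-coordinate end, the second of which overlapped SEC31B. WNT3A had 6.28 and 5.30 within the gene. WNT4 had 5.73, 5.23 and 5.13 just downstream of its start, next to a CTCF peak of 112 with its summit 0.355 kb upstream. WNT9A reached 5.25. WNT7B had 5 peaks up to 5.13, of which 3 overlapped CTCF peaks, and its strongest CTCF peak had a signal value of 229.5. WNT2B had 4 peaks of 3.55 or less, and the single peak of WNT1 had 2.93 with a −log10 q of 1.25, which is a q above 0.05.

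No H3K27ac peak was listed for 7 ligands: WNT2, WNT6, WNT8A, WNT10A, WNT10B, WNT11 and WNT16. All but WNT2 had CTCF. WNT11 had peaks of 255 and 225 inside the gene, and WNT8A had 1 of 177 at its lower-coordinate end. WNT10A had 236, 211 and 181, and the first of these also lay in the interval of WNT6. WNT10B had 180, 85.8, 79.6 and 46.1. WNT16 had 1 weak peak of 24.9 with its summit 661 bp downstream of its start. A gene without a listed peak may still carry acetylation below the authors' threshold.

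Several WNT genes lie near one another, and 2 of the 4 pairs described here shared CTCF peaks. With 5 kb added on each side, only the intervals of these 2 pairs overlap. The count of sharing pairs therefore follows from the distances between the genes. WNT6 and WNT10A overlap by 118 bp on chromosome 2, with no H3K27ac peak in either interval and a shared CTCF peak from 218876580 to 218877044. WNT10B and WNT1 are 6.59 kb apart on chromosome 12. The space between them met 3 CTCF peaks and no H3K27ac peak, and the 2 CTCF peaks that both intervals share had signal values of 180 and 46.1. In the 14.5 kb between WNT3 and WNT9B lay 4 H3K27ac peaks with values up to 16.7 and 1 CTCF peak of 100.1. The 59.1 kb between WNT9A and WNT3A on chromosome 1 held 3 CTCF peaks with signal values up to 299.7 and no H3K27ac peak. The 3 CTCF peaks shared by a pair were counted once among the 95, and no H3K27ac peak was shared between members.

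The antagonists and agonists carried mostly modest acetylation. SFRP4 had peaks of 13.4, which overlapped the neighbouring gene EPDR1, and of 7.18 with its summit 19 bp downstream of its start. It also had 5 CTCF peaks, the strongest of 199, and 4 of these overlapped H3K27ac. SFRP2, a WNT-binding antagonist, had 4 peaks, the strongest of 6.86 with its summit 0.326 kb upstream of the start, and weak CTCF peaks of 54.0 and 38.6. SFRP1 had 6 peaks up to 6.003, 5 in the gene and 1 in its flank, and SFRP5 a single one of 4.09. Among the DKK genes, DKK3, a divergent member of the family, had 9 peaks up to 11.2, more peaks than 94.8% of 2044 genes of similar length. DKK1, an antagonist that is itself a target of the canonical branch, had only 4.505 and 3.96 at its start, beside a CTCF peak of 201. DKK2 had peaks up to 4.87 and CTCF peaks of 277 and 222. The value of 18.8 for DKK4 came from its only H3K27ac peak, which overlapped both DKK4 and VDAC3. Its strongest CTCF peak, 181, lay inside DKK4 and off that H3K27ac peak. The CTCF peaks that overlapped H3K27ac there were weak, with signal values of 12.8 and 10.1 and a q above 0.05 each.

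The R-spondins and their receptors differed among themselves. RSPO2 reached 6.0 and RSPO3 3.42, while RSPO1 had no peak of either list and RSPO4 no H3K27ac peak. CTCF was strong at 2 of them, with signal values of 334 at RSPO3, 2.90 kb downstream of its start, and of 310 at RSPO4, in the flank of the interval. LGR4, a receptor for R-spondins, had 9 H3K27ac peaks and no CTCF peak. Its strongest, 21.2, had its summit 132 bp downstream of the start. LGR5, known as a stem cell marker, had 4 peaks up to 11.3, and the strongest lay from 71456078 to 71458006 on chromosome 12, inside the gene. LGR6 had no H3K27ac peak and 6 CTCF peaks, up to 330, which was more CTCF peaks than 90.8% of 1314 genes of similar length.

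**Figure D3:**
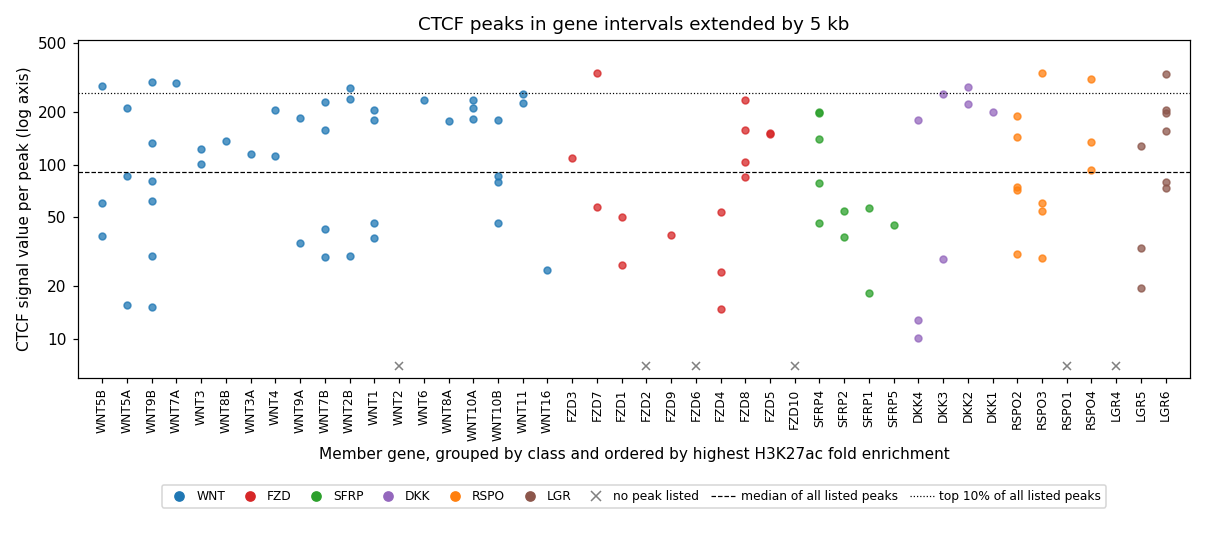
CTCF signal value (log axis) of each peak (point) in the same intervals and gene order as for H3K27ac, coloured by class. Crosses mark the 6 genes with no peak listed, the dashed line the median of the whole list (91.0) and the dotted line its top 10% (257). Points above the dotted line are found in WNT, FZD, DKK, RSPO and LGR genes, the highest at FZD7 (336).

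CTCF values in the family resembled those of the whole list. The median signal value was 103 for the 95 peaks and 91.0 for all CTCF peaks. Of the 95, 50 were above the list's median and 9 lay in its top 10%. A width of 800 bp, which recurs in 33.4% of the list, was found in 29 of them (30.5%). An H3K27ac peak overlapped 32 of the 95 (33.7%), against 28.1% of the list. Counted by gene, 18 members (40.9%) had a CTCF peak that overlapped an H3K27ac peak, against 40.6% of protein-coding genes. For the 147 H3K27ac peaks the median was 5.09-fold, beside 4.74-fold for the list, and 14 were in the top 10%. A q above 0.05 was listed for 8 of the 147 H3K27ac peaks and 7 of the 95 CTCF peaks.

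At the start sites H3K27ac was found at a smaller share of the members than of all genes, and CTCF at a larger one. The 14 members without an entry in the start table, among them FZD3, FZD7 and FZD2 with their strong peaks, could not be included. For the 30 members with a listed start, an H3K27ac peak lay within 1 kb of it in 14 (46.7%), against 65.9% of 15842 protein-coding genes with a listed start. A CTCF peak lay there in 18 (60%), against 35.4%. More members had CTCF than H3K27ac there only by a few, and this order turned with the stronger 50% of each list (9 with CTCF and 10 with H3K27ac) and without CTCF peaks of 800 bp (13 and 14). Both were present in 11 members: WNT4, WNT5A, WNT7A, FZD1, FZD4, FZD5, FZD8, SFRP4, SFRP5, DKK1 and RSPO3. H3K27ac alone was present in WNT3, SFRP2 and LGR4. CTCF alone was present in 7: WNT1, WNT2B, WNT5B, WNT9A, WNT9B, WNT16 and LGR6. Neither lay within 1 kb in 9: WNT2, WNT3A, WNT6, WNT8A, WNT8B, WNT10A, FZD9, RSPO1 and RSPO4. These combinations of marks at the start were not counted over all protein-coding genes, so it is unknown whether their numbers are particular to the family. Of the 16 WNT genes with a start, 4 had H3K27ac there and 9 had CTCF, and of the 5 FZD genes 4 had each.

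**Figure D4:**
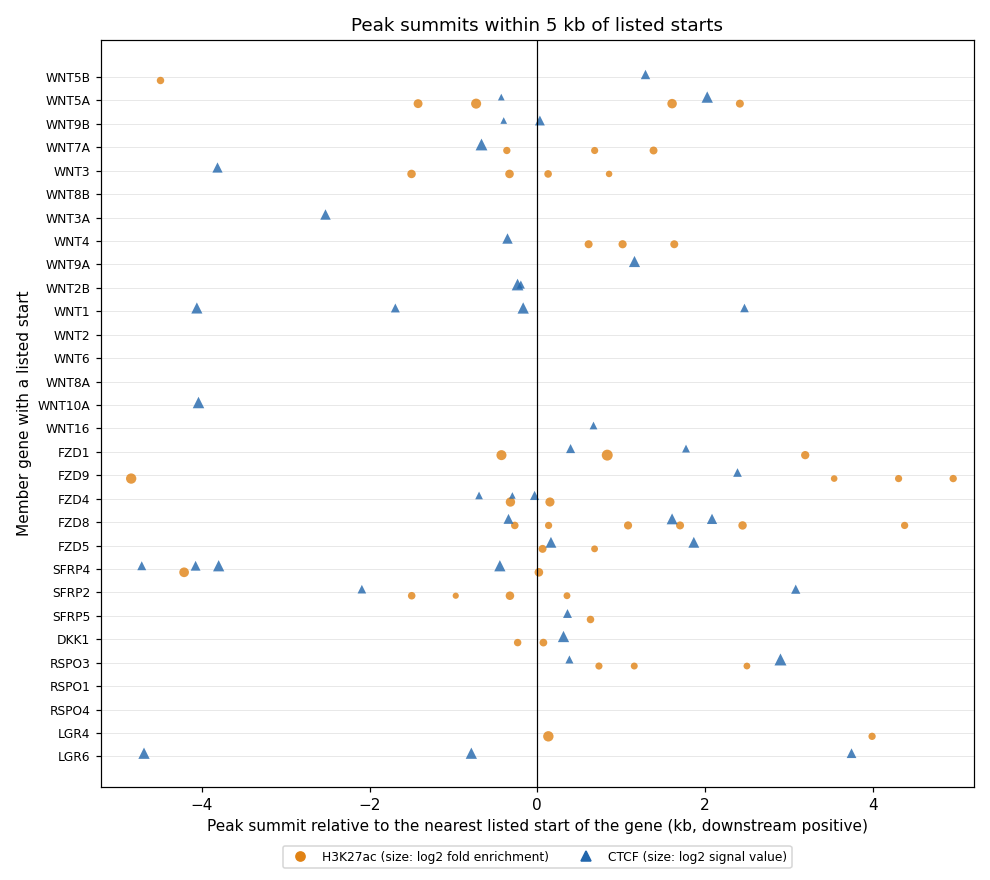
Summits of H3K27ac peaks (orange circles) and CTCF peaks (blue triangles) within 5 kb of the nearest listed start, in kb along the direction of transcription, for the 30 genes with a listed start. Symbol size grows with the log2 of the value within its own list. WNT2, WNT6, WNT8A, WNT8B, RSPO1 and RSPO4 have no summit in this range, while circles and triangles lie together at FZD1, FZD4, FZD5, FZD8 and DKK1.

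Peaks more than 20 kb from a start made up 29.8% of the H3K27ac peaks of these genes and 16.4% of the CTCF peaks. Of 84 H3K27ac peaks, 24 had the summit within 1 kb of a start, 22 at 1 to 5 kb, 13 at 5 to 20 kb and 25 farther away. Of 67 CTCF peaks the numbers were 20, 22, 14 and 11. An H3K27ac peak overlapped 11 of the 20 CTCF peaks within 1 kb and none of the 11 beyond 20 kb. The H3K27ac peaks within 1 kb of a start reached 31.2, with a median of 4.40, and those beyond 20 kb reached 12.5, with a median of 5.25. Distances were not counted over all genes, so these numbers cannot be called particular to the family. Gene length also limits them, because only long intervals can hold a peak more than 20 kb from a start.

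The other genes of the pathway on a list of 42 were counted in the same way. An H3K27ac peak was listed for 39 of them, against 73.8% of all protein-coding genes, and a CTCF peak for 39, against 68.3%. A peak in the top 10% of the H3K27ac list was found at 26, against 36.6%. H3K27ac was listed at all 10 co-receptors and surface regulators, all 13 intracellular genes and all 11 transcription genes, and 7, 10 and 7 of these reached the top 10%. The highest values were 98.9 at LRP6, a WNT co-receptor, 48.1 at CSNK1A1 and 46.9 at GSK3B, which encode kinases of the β-catenin destruction complex. The 3 genes without H3K27ac, NOTUM, WIF1 and SOST, all encode secreted inhibitors. Other secreted inhibitors did have the mark: FRZB and SOSTDC1 on this list reached 7.29 and 9.76, and all 4 SFRP and all 4 DKK members had a peak. With 0 for no peak, the strongest peak had a median of 21.6 over these 42 genes, 28.4 over the intracellular group and 7.92 over the 8 genes of secretion and secreted factors, next to 6.0 over the 44 members. Many of these genes are active in most cell types, and the lists were not matched on expression or length.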

How the data were processed

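Each antibody has 1 deposited peak list of 10 columns per row without a header, covering both libraries of that antibody, and 0 columns of per-sample values. Per the submitters' processing notes the build is hg38 and reads were trimmed with cutadapt 1.16. The aligner, the peak caller and its settings are not given in the sources used here. The authors' CTCF signal value has no stated scale. The deposited H3K27ac column was read, from its layout and values, as a fold enrichment (a ratio) at the summit. The lists also hold the authors' −log10 q, which was used for one alternative, and a score from the authors' pipeline, which was not used. A CTCF −log10 q of 4.78 is the list's maximum and does not order strong peaks.

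Positions were converted to 1-based coordinates. Gene intervals came from RefSeq GRCh38.p14 and start sites from a promoter table derived from it, which does not hold every gene. Of 22183 listed starts of protein-coding genes, 43.5% fell inside an H3K27ac peak, against 2.80 to 2.88% after moving the starts by 20 or 50 kb. The upstream sequences were checked for orientation: 2819 of 2819 overlapping windows on opposite strands held the same bases. A peak belonged to a gene when it shared 1 bp with the gene interval extended by 5 kb. A strong H3K27ac peak lay in the top 10% of its list. No test was run, because neither list holds replicate values. Shares of members were set beside shares of all protein-coding genes. Percentages of genes with fewer peaks refer to protein-coding genes within 20% of the member's length. The overlap code was tested on simulated data. Python 3.11.15, numpy 2.4.6 and pandas 2.3.3 were used.

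The members and lists were chosen with earlier results of these data known. The rule for named genes took the 12 members with the highest H3K27ac value, the 8 with the highest CTCF value, those sharing a peak and those without H3K27ac, and the start windows met by both lists. WNT1, WNT2B and the letters searched were chosen after their values were seen. Alternatives were the extension, the start window, stricter lists, summits in place of peaks and CTCF peaks without the 800 bp width. Leaving out peaks that also overlap another protein-coding gene was added after the data were seen. The input libraries were not analysed here.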

Additional observations from a re-analysis of the deposited data

How the results depend on the processing

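No paired analysis was possible because the replicates of an antibody were merged into 1 list, which also prevented fits without single replicates. Of 47 alternatives to the 7 counts of members, 4 could not move the count: 2 changed only the background, and 2 removed no strong H3K27ac peak that decides it. Of the other 43, 39 stayed within 1.5 times the count and 4 did not. With only the stronger 50% of each list, members with a CTCF peak at the start fell from 18 to 9 and members with a CTCF peak overlapping H3K27ac from 18 to 9. The latter number was 10 when the CTCF summit had to lie inside the H3K27ac peak. Taking the top 20% of the H3K27ac list as strong raised the 10 members to 17. The number of members with H3K27ac ranged from 28 to 34 and with CTCF from 31 to 39. The members' share stayed above that of all protein-coding genes in 7 of 7 alternatives for CTCF and in 6 of 6 for CTCF at the start, and below it in the 5 for strong H3K27ac that could move it and all 5 for H3K27ac at the start. More members had H3K27ac than CTCF at the start with the stronger 50% of each list (10 and 9) and without CTCF peaks of 800 bp (14 and 13). For H3K27ac anywhere in the interval it was above in 4 of 6, so that share has no settled side. Without peaks that also overlap another protein-coding gene, 8 members had a strong H3K27ac peak and 35 had CTCF. The causes of these moves were not tested. Depth is unknown, so a missing peak may lie below the authors' threshold.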
